A study of Mus musculus with 46 samples.

Results

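The genes described here are those of the count table whose symbols begin with Gpr and a digit, with Gprc5 or with Adgr, the names given to orphan and adhesion G protein-coupled receptors. The symbol was the only criterion. It picked 105 of the 31854 rows of the table, of which 74 were Gpr genes, 4 were Gprc5 genes and 27 were adhesion (Adgr) genes. The name is not proof of an orphan receptor. Some Gpr genes have known or proposed ligands (Gpr1 binds chemerin), and others (Gpr89, Gpr107, Gpr108 and the Gpr137 genes) encode membrane proteins of the Golgi or lysosome that are not established as receptors.

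G protein-coupled receptors sit in the plasma membrane and, when a ligand binds, exchange the nucleotide on a G protein, which then raises or lowers cAMP, calcium or other messengers; RGS proteins shorten the signal and receptor kinases with arrestins switch it off. An orphan receptor has no agreed ligand, and some, such as Gpr3, Gpr6 and Gpr12, raise cAMP without one being added. Adhesion receptors carry long extracellular parts that bind matrix proteins or proteins on neighbouring cells, and they are known from synapse formation, myelination and epithelia. In the arcuate nucleus (ARC) of the hypothalamus, AgRP neurons drive feeding and POMC neurons restrain it, and leptin, the hormone of fat stores, acts on both through the STAT3 transcription factor.

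RNA on ribosomes was taken by translating ribosome affinity purification (TRAP) from NuTRAP mice, in which Cre frees a GFP-tagged ribosomal protein, L10a, together with mCherry-tagged RANGAP on the nuclear envelope. Cre came from AgRP-IRES-Cre or POMC-IRES-Cre, so the tags were carried by cells in which that promoter was active or had been active earlier. Cre line and cell type cannot be told apart. Male mice on a C57BL/6J background were fed ad libitum, fasted overnight for 18 to 20 h, or fasted and given leptin at 5 mg/kg by intraperitoneal injection. The other groups were injected with PBS, and tissue was taken 3 h after injection. The AgRP mice were 6 to 11 weeks old, the age of the POMC mice was not stated, and 4 ARCs were pooled per TRAP sample. There were 3 fed, 4 fasted and 4 leptin samples of AgRP neurons, and 2 samples per state of POMC neurons. ATAC-seq, which counts reads in open chromatin, was made on sorted GFP-positive AgRP nuclei with 2 libraries per state, and on AgRP-positive and AgRP-negative ARC nuclei with 2 libraries each.

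The RNA libraries held between 25581041 and 54511107 counted reads for AgRP and between 30704075 and 53217053 for POMC, and the ATAC libraries between 8263234 and 17190963 reads in peaks. The summed level of 6 AgRP-neuron markers was 1656 to 6450 CPM in AgRP libraries and 110 to 202 CPM in POMC libraries, and that of 5 POMC-neuron markers was 195 to 276 CPM against 1719 to 3148 CPM, so both lines carried their label. Within AgRP libraries the markers moved with the state. The summed AgRP-neuron markers were at 1656 to 2339 CPM in fed and 2958 to 6450 CPM in fasted samples, with 6 of 6 genes above 0 in log2 fold change (median 0.60). The study reports Agrp, Npy, Acvr1c and Otp, which are among these markers, as induced by fasting. Their sum is thus not a measure of how pure the fed and fasted samples were. With fasting 0 of 5 astrocyte markers (median -0.34), 1 of 7 oligodendrocyte markers (-0.42) and 0 of 4 tested microglial markers (-0.66) were above 0, none of them called without the replicate block. The 3 AgRP libraries numbered 4 stood apart from the other 8 in the summed markers of astrocytes (836 to 881 CPM against 391 to 616 CPM) and of tanycytes and ependymal cells (73.8 to 117 CPM against 23.1 to 44.5 CPM). Each count of members called was therefore also made without them. No glial, microglial or endothelial marker was at 0 in every library, and the part of other cells in the results was not tested.

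A gene was tested where its mean level was over 1 CPM, the read count scaled to the size of the library, in the libraries fitted. This left 71 of the 105 members in AgRP libraries, 72 in POMC libraries and 73 in both together. Of the 34 members not tested in AgRP neurons, 30 were under 1 CPM in every AgRP library, and Gpr33 had no count in any of the 17 libraries. The filter used the mean over the 3 states, so that Gprc5a and Gpr151 passed it through the states in which they were high. A gene was called where the edgeR quasi-likelihood test gave a Benjamini-Hochberg FDR under 0.05 over all genes tested and the log2 fold change was over 0.5 in size.

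Per kilobase of exon, the most abundant members in AgRP neurons were Gpr162 with 57.1 ± 5.48 CPM per kb (SD, n = 11), Gpr165 with 54.3 ± 8.32 and the latrophilin Adgrl1, which binds teneurins and FLRT proteins across the synapse, with 52.6 ± 4.85. They were followed by Adgrg1 (45.2 ± 5.07), Adgra1 (34.6 ± 4.98), Adgrb2 (32.6 ± 3.47), Gpr158 (28.4 ± 2.80), Gpr26 (27 ± 17.1), Gprc5b (27 ± 14.5) and Gpr153 (26.5 ± 2.08). The ranges over libraries of each gene and the next in this order overlapped, so neighbours were not separated. None of these 10 was called between states in AgRP neurons. The wide spread of Gpr26 and Gprc5b came from the libraries numbered 4, in which Gpr26 was at 134, 164 and 146 CPM (fed, fasted and leptin) against 38.0 to 63.2 CPM in the other 8. In POMC neurons the leading genes were Gpr165 (89.6 CPM per kb, n = 6), Gpr101 (67.2), Adgrl1 (58.4) and Adgrg1 (52.2).

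In fasted against fed AgRP samples 9 of 71 members were called (12.7%), against 3.89% of all 13401 genes tested. Adgrg2, Gprc5a, Gpr6, Gpr3, Adgre5, Gpr19 and Gpr157 were higher, and Adgrg6 and Gpr179 were lower. Leaving out 1 library gave 5 to 8 members called, with 5 without fasted replicate 1 or 3 or fed replicate 1 or 3. The median log2 fold change was -0.01 over the members and 0.02 over all genes, with 34 members above 0 and 37 below. Leptin against fasting called 5 of 71 members (7.04%), against 1.83% of all genes, of which Gpr151, Adgrd1 and Gpr63 were higher and Gpr6 and Gpr75 lower. Leaving out 1 library gave 2 to 6, with 2 without fasted replicate 3 or leptin replicate 1 and 3 without fasted replicate 1 or 2. With the replicate number as a block, a fit in which samples sharing a number are compared with each other, 9 members were called (12.7% against 2.91%). That block called 11 of 71 members in fasted against fed (15.5% against 6.94% of all genes). Leptin against fed called 7 of 71 (9.86%), against 5.48% of all genes, and 9 with the block (12.7% against 8.57%). These 3 comparisons share samples, so their calls are not independent. In all, 13 members were called in at least 1 of them without the block, and the plot of every library shows these 13.

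**Figure D1:**
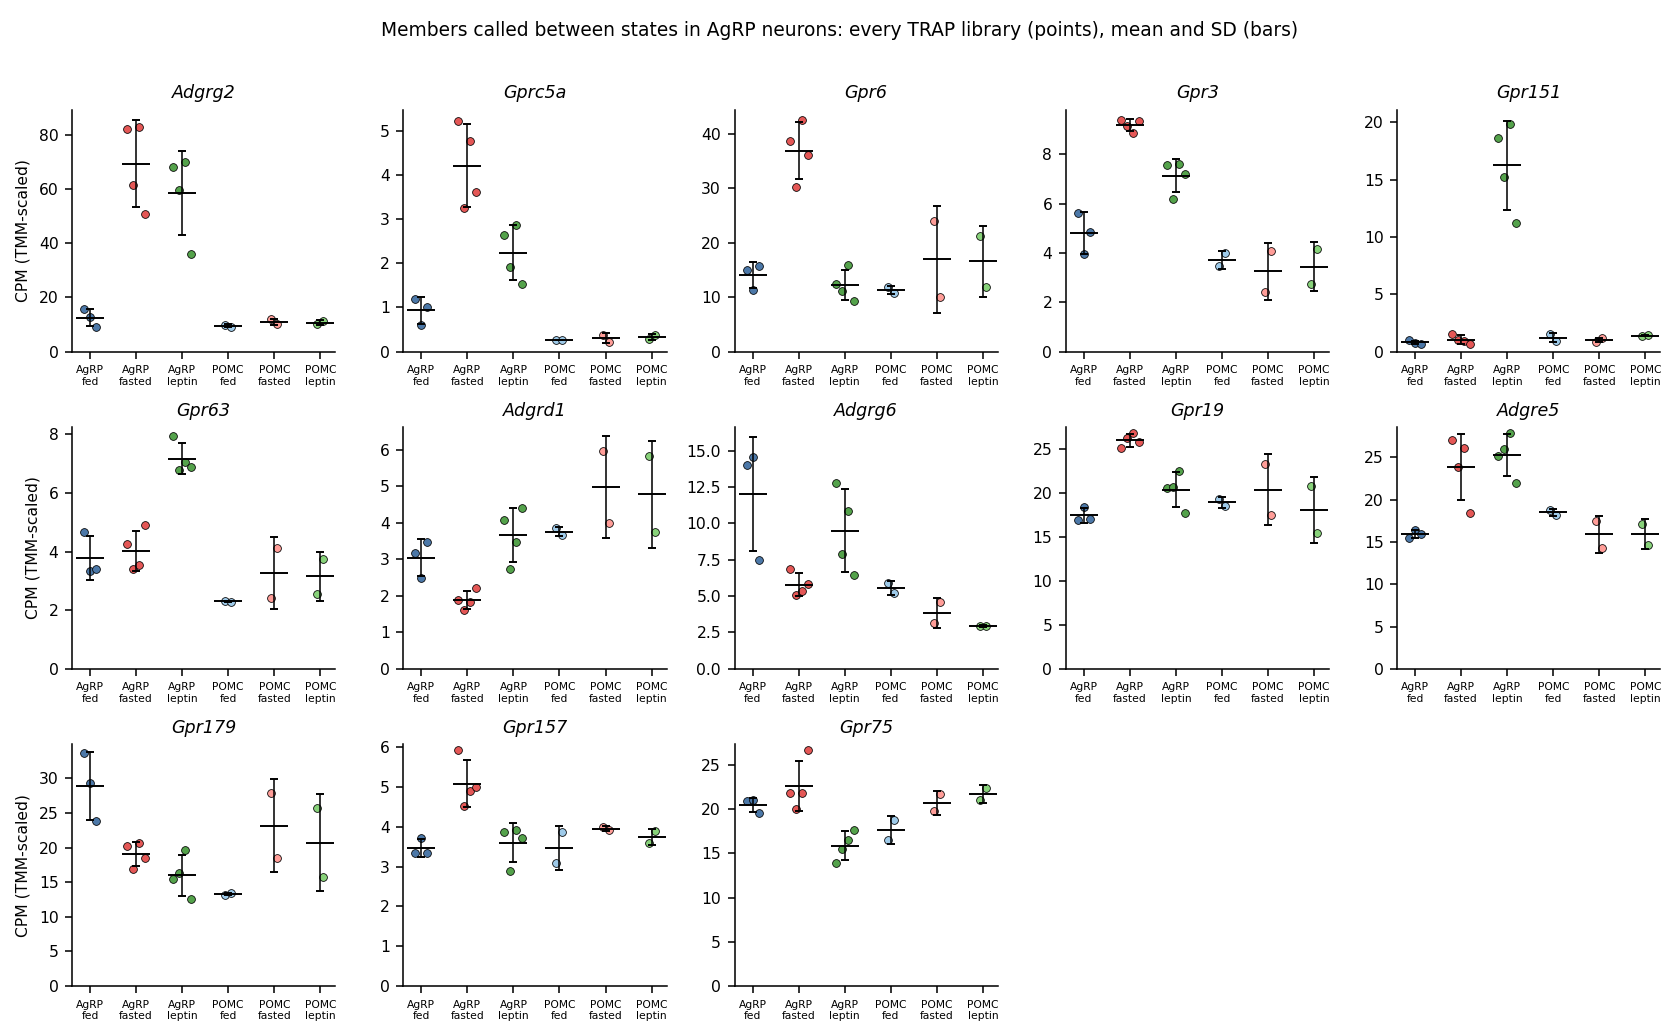
Levels (CPM, scaled by TMM over the 17 libraries; vertical axes start at 0) of the 13 members called between states in AgRP neurons, with 1 point per TRAP library and the mean and SD of each group as bars. Gpr151 was at 11.2 to 19.8 CPM in the 4 leptin-treated AgRP samples and at or under 1.54 CPM in every other AgRP and POMC sample.

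**Figure D2:**
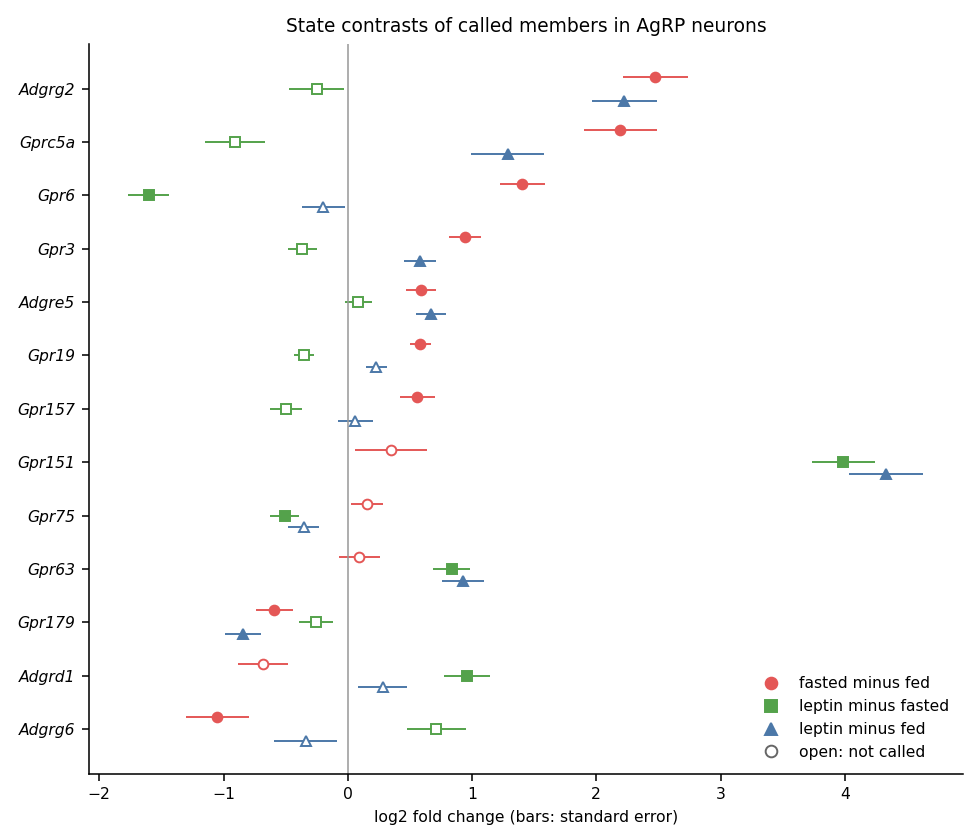
Log2 fold changes between states in AgRP neurons (horizontal axis; bars are standard errors) for the same 13 members (vertical axis), with filled symbols for called and open symbols for not called. In this fit without the replicate block, Gpr6 was called in both fasted against fed (1.40) and leptin against fasted (-1.60), and Adgrg2 was called in fasted against fed (2.47) and leptin against fed (2.23).

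Gpr3, Gpr6 and Gpr12 form a small family of receptors known to raise cAMP through the stimulatory G protein without an added ligand. Gpr6 stood at 15.1, 11.4 and 15.7 CPM in the fed AgRP samples, at 38.7, 30.3, 42.6 and 36.1 CPM in the fasted samples and at 12.4, 11.2, 15.8 and 9.34 CPM after leptin. The fasted samples were all above the other 7, and the leptin samples overlapped the fed samples. The log2 fold change was 1.40 (SE 0.18, FDR 0.00192) for fasted against fed and -1.60 (SE 0.16, FDR 0.000546) for leptin against fasted, a 3.03-fold fall. Leptin against fed gave -0.20 (FDR 0.583). Gpr6 was the only member called in both the first and the second of these without the replicate block; with it there were 5, the others being Adgrd1, Adgrg6, Gpr157 and Gprc5a.

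Gpr3 was at 5.62, 3.94 and 4.86 CPM in fed, 9.40, 9.15, 8.86 and 9.34 CPM in fasted and 7.58, 6.18, 7.60 and 7.19 CPM in leptin samples. The 3 groups did not overlap, with leptin samples between the other groups. The rise with fasting was 1.93-fold (log2 0.95, SE 0.13, FDR 0.00244). Leptin against fasted gave a log2 fold change of -0.37 (FDR 0.213), and leptin against fed gave 0.58 (SE 0.13, FDR 0.0207). Gpr3 in leptin against fed lost its call without fed replicate 3 or 4 or leptin replicate 3 (highest FDR 0.0747), and also when the samples numbered 4 were left out together. Gpr12, the third of the family, was at 7.23, 6.43 and 8.04 CPM in fed and 5.24 to 8.24 CPM in fasted samples, with a log2 fold change of -0.18 (FDR 0.702). The 2 genes that rose differ from Gpr12 in value, but the difference between the genes was not tested.

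Both promoters lay in open chromatin at the annotated start in every state, and neither start peak was called. The Gpr6 start peak (chr10:41070853-41072647) held 44.1 and 34.7 ATAC CPM in fed, 36.4 and 32.8 in fasted and 30.3 and 23.8 in leptin libraries. The Gpr3 start peak (chr4:133212124-133213425) held 24.5 and 35.6, 46.0 and 35.9, and 37.4 and 32.7 ATAC CPM in the same order. Fed and fasted libraries overlapped at the first and not at the second, where the log2 difference was 0.42 (FDR 0.131). The RefSeq promoter sequences of these genes are given because they rose together and because each holds the letters of a motif of an activity-regulated factor. TGACGTCA is the full cAMP response element (CRE) and TGANTCA the AP-1 motif, both read on either strand. Capitals mark the match, the build is GRCm38.p6, and both genes are on the minus strand. The Gpr3 match begins at base 250, the last before the start, and runs past the start.
Gpr6, chr10:41072291-41072540: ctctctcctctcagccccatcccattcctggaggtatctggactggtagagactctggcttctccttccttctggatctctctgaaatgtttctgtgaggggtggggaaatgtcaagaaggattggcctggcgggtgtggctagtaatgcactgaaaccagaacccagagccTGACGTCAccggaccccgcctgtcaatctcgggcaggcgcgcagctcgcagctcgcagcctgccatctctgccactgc
Gpr3, chr4:133212531-133212786: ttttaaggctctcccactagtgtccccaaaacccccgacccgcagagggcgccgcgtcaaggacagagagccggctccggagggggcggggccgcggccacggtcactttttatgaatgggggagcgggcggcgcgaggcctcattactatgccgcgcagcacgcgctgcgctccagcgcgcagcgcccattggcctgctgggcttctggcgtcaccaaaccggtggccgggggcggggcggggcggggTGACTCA
The CRE letters occurred in 1.79% of 32851 promoter windows of 300 bases from all genes, and the AP-1 letters in 7.81%. Among 93 windows of members they occurred in 1 (1.08%) and 8 (8.6%). Gpr6 was thus the only one of these member windows with the full CRE. They cover 73 of the 105 members, and Gprc5a had none. Among the 24 windows of members called between states of AgRP neurons or between the lines, each motif occurred in 1 (4.17%). A match is a description of the letters and says nothing of binding.

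Adgrg2, an adhesion receptor known from fluid transport in the epididymal ducts, made the largest change of any member with fasting. It stood at 15.5, 12.8 and 9.19 CPM in fed samples and at 82.3, 61.5, 83.1 and 50.6 CPM in fasted samples. After leptin it was at 68.2, 59.6, 69.8 and 36.1 CPM. No fasted or leptin sample overlapped the fed samples, and fasted and leptin samples overlapped each other. The rise with fasting was 5.56-fold (log2 2.47, SE 0.26, FDR 0.0010), and leptin against fed was 4.68-fold higher (log2 2.23, SE 0.26, FDR 0.000972). Leptin against fasted gave -0.25 (SE 0.22, FDR 1.00). In POMC samples Adgrg2 stayed between 9.18 and 11.8 CPM in all states, close to the fed AgRP samples.

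Chromatin at Adgrg2 (X:160390690-160498070, plus strand) was also more open in fasted than in fed AgRP nuclei, away from its start. The peak over the start differed by 0.46 on the log2 scale (FDR 0.311) and was not called. Of the peaks in the gene or within 10 kb of it, 5 were called higher in fasted libraries, among them peaks 4.8 kb before the start and 68.7, 72.2 and 103.9 kb after it. The peak at 68.7 kb (chrX:160459006-160459674) held 0.881 and 0.512 ATAC CPM in fed, 6.85 and 4.61 in fasted and 3.8 and 3.9 in leptin libraries (log2 3.12, SE 0.51, FDR 0.00023). Fed libraries were the lowest there. At 72.2 and 103.9 kb the fasted libraries differed from each other by more, with 1.10 and 4.17 and with 0.840 and 3.03 ATAC CPM. No Adgrg2 peak was called between leptin and fasted, as its RNA was not. The middle of the peak at 68.7 kb is given because this part of the gene opened while the start did not pass the test. Capitals mark the AP-1 letters, read on the plus strand.
Adgrg2, chrX:160459191-160459490: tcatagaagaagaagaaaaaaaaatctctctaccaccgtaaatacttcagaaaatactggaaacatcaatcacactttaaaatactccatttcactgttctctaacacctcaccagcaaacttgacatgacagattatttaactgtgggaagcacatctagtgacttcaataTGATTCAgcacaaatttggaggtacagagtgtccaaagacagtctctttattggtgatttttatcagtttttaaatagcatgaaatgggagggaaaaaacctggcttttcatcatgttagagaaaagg

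Other adhesion receptors moved less. Adgre5 (CD97), a receptor of leukocytes and other cells that binds CD55, was at 15.4, 16.4 and 16.0 CPM in fed, 27, 23.9, 26.1 and 18.4 CPM in fasted and 25.1, 26.0, 27.9 and 22.0 CPM in leptin samples. The fed samples were below all others, and both differences from fed were called (log2 0.59, SE 0.12, FDR 0.0165 for fasted; 0.67, SE 0.12, FDR 0.00712 for leptin). Of its exon bases 24.6% lie opposite exons of Ddx39, and the kit does not mark strand, so reads of the 2 genes cannot be fully told apart. Exons of other genes also overlap those of Adgrl1 (15.6%), Gprc5b (13.1%), Gpr19 (9.25%), Adgrl3 (8.91%), Gpr63 (8.42%), Gpr3 (7.46%) and Gpr158 (7.36%), among the members described here. The fasted call of Adgre5 was lost without any 1 of the 3 fed samples or fasted replicate 1 or 3 (highest FDR 0.0797, without fed replicate 1). With the replicate block and all samples it was kept (log2 0.58, FDR 0.00106).

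Adgrg6 (GPR126), which binds collagen and is needed in Schwann cells for myelination, moved the other way. It was at 14, 14.5 and 7.47 CPM in fed, 6.89, 5.10, 5.34 and 5.80 CPM in fasted and 12.8, 7.91, 10.8 and 6.44 CPM in leptin samples. All fasted samples lay below all fed samples, and leptin samples overlapped both. The fall with fasting was -1.05 on the log2 scale (SE 0.26, FDR 0.0385). Of 11 fits that each omitted 1 sample, 8 lost this call (highest FDR 0.150, on omitting fed replicate 1). The rise of 0.71 with leptin had an FDR of 0.25, and of 0.0089 with the replicate block. An Adgrg6 peak 100.0 kb after the start (chr10:14445287-14446115) went against the RNA, with 2.64 and 2.41 ATAC CPM in fed, 8.34 and 4.86 in fasted and 1.20 and 0.736 in leptin libraries, called higher with fasting (log2 1.39) and lower with leptin (-2.79, SE 0.42, FDR 0.000812). Another (chr10:14493338-14493958) moved with the RNA, with 7.81 and 2.93, 0.97 and 0.757, and 4.01 and 2.43 ATAC CPM, and was called lower with fasting (-2.48).

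Adgrd1 (GPR133), which is known to raise cAMP, was at 3.17, 2.49 and 3.47 CPM in fed, 1.87, 1.61, 1.84 and 2.22 CPM in fasted and 4.07, 2.74, 3.46 and 4.40 CPM in leptin samples. Every fasted sample was below every other AgRP sample. Leptin against fasted was called (log2 0.96, SE 0.19, FDR 0.0202), and fasted against fed, at -0.68, had an FDR of 0.0788, or 0.0155 with the replicate block. The leptin call was lost without fasted replicate 1, 2 or 3 or leptin replicate 1 (highest FDR 0.0728). The 4 Adgrl genes (latrophilins and Adgrl4), the 3 brain angiogenesis inhibitors (Adgrb) and the 3 Adgra genes were not called between states in AgRP neurons. Adgra1 passed the FDR in leptin against fed (0.0341), with a log2 change of -0.37, under the size required. Its leptin samples (125 to 145 CPM) lay below all fed and fasted AgRP samples (162 to 196 CPM).

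Gpr151, a receptor related to the galanin receptors and best known from habenular neurons, was low except after leptin. It was at 0.968, 0.739 and 0.694 CPM in fed samples, which is 17 to 36 reads, and at 1.54, 1.03, 0.886 and 0.625 CPM in fasted samples. After leptin it was at 18.7, 15.3, 19.8 and 11.2 CPM, or 375 to 1087 reads. The lowest leptin sample was above the highest of all others by a wide margin. Leptin against fasted was 15.9-fold higher (log2 3.99, SE 0.26, FDR 2.8e-05) and leptin against fed 20.2-fold (log2 4.34, SE 0.30, FDR 7.5e-05). Fasted against fed gave 0.35 (SE 0.29, FDR 0.586). Chromatin at its start held 2.90 and 2.63 ATAC CPM in fed, 6.08 and 5.93 in fasted and 23.0 and 17.3 in leptin libraries, and was called in both steps (log2 1.13, FDR 0.0408, and 1.74, SE 0.27, FDR 0.000834). It was the only start peak of a member called with leptin, 1 of 94 (1.06%), against 0.417% of start peaks of all genes.

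Gpr63, an orphan of the brain, was at 4.65, 3.33 and 3.39 CPM in fed, 4.26, 3.39, 3.54 and 4.89 CPM in fasted and 7.95, 6.79, 7.06 and 6.89 CPM in leptin samples. Leptin samples were all above the others, with log2 fold changes of 0.84 (SE 0.15, FDR 0.0141) against fasted and 0.93 (SE 0.17, FDR 0.00768) against fed. The first of these was lost without fasted replicate 3 or leptin replicate 1 (highest FDR 0.0572). Its closest relative, Gpr45, did not follow in RNA, with 26.2, 24.6 and 25.7 CPM in fed, 23.0 to 29.5 CPM in fasted and 24 to 29.8 CPM in leptin samples (leptin against fasted 0.03, FDR 1.00). An intronic peak 47.9 kb after the annotated start of Gpr45 nevertheless had the largest leptin opening at any member. It held 0.629 and 0.878 ATAC CPM in fed, 0.323 and 0.757 in fasted and 5.21 and 6.22 in leptin libraries (chr1:43000541-43000968; log2 3.39, SE 0.44, FDR 0.00029). Its middle is given because it holds the STAT letters TTCNNNGAA 3 times (capitals, plus strand).
Gpr45, chr1:43000605-43000904: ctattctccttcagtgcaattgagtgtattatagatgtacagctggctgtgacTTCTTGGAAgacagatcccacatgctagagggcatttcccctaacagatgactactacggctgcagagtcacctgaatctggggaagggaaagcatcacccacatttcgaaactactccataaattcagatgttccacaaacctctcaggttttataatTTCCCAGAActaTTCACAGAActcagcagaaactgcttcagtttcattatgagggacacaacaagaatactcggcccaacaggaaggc

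Gprc5a, a class C receptor induced by retinoic acid and known from lung epithelium, was a low gene that rose with fasting. It was at 1.18, 0.592 and 1.02 CPM in fed samples (24 to 44 reads), at 5.23, 3.26, 4.77 and 3.61 CPM in fasted samples (104 to 221 reads) and at 2.65, 1.91, 2.86 and 1.53 CPM after leptin. The 3 groups did not overlap, and the leptin samples lay between the others. The rise with fasting was 4.58-fold (log2 2.19, SE 0.29, FDR 0.00213), and leptin against fed gave 1.29 (SE 0.29, FDR 0.0226), lost without fed replicate 3 or 4 or leptin replicate 1 or 3 (highest FDR 0.0836). Leptin against fasted gave -0.91 (SE 0.24) with an FDR of 0.0985, or 0.00342 with the replicate block. The peak over its start (chr6:135065193-135065936) held 6.92 and 7.82 ATAC CPM in fed, 18.8 and 9.97 in fasted and 11.0 and 9.85 in leptin libraries, and was called higher in fasted libraries (log2 0.94, SE 0.32, FDR 0.0340). The same place was more open in AgRP-positive than in AgRP-negative nuclei, with 15.1 and 11.3 against 3.45 and 2.72 ATAC CPM (log2 2.09, SE 0.31, FDR 2.7e-10). The sequence before the start is given because RNA and chromatin changed together here and because it holds a full CRE (capitals, plus strand).
Gprc5a, chr6:135065415-135065650: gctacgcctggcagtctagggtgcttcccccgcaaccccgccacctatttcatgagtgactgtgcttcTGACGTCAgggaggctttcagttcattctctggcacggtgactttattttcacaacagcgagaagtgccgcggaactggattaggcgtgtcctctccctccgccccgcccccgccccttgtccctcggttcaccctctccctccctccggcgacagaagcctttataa
Among the 53 fasting-opened peaks at members, 1 (1.89%) held the CRE letters in its central 300 bases, against 0.54% of fasting-opened peaks in the genome.

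Gpr179, another class C receptor, known from retinal bipolar cells, fell. It was at 33.6, 29.3 and 23.8 CPM in fed, 20.2, 16.9, 20.7 and 18.5 CPM in fasted and 15.4, 16.4, 19.7 and 12.5 CPM in leptin samples. Every fed sample was above all others. The log2 fold change was -0.59 (SE 0.15, FDR 0.0425) with fasting and -0.84 (SE 0.15, FDR 0.00659) for leptin against fed. Of 11 fits that each omitted 1 sample, 8 lost the fasting call (highest FDR 0.181, on omitting fed replicate 1).

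Among the remaining orphans, Gpr19 rose with fasting and Gpr75 fell with leptin. Gpr19 was at 17, 18.5 and 17 CPM in fed, 25.1, 26.3, 26.9 and 25.8 CPM in fasted and 20.6, 20.8, 22.5 and 17.7 CPM in leptin samples (log2 0.58, SE 0.086, FDR 0.00328 for fasting). Leptin against fasted passed the FDR for Gpr19 (0.0423) with a log2 fold change of -0.35, under the size required. Gpr157, known from the primary cilia of neural progenitors, was at 3.34, 3.72 and 3.35 CPM in fed and 5.92, 4.54, 4.9 and 5 CPM in fasted samples (log2 0.56, SE 0.14, FDR 0.0461). This call was lost in 10 of 11 fits without 1 library (highest FDR 0.178, without fed replicate 4). With the replicate block and all samples it was kept (log2 0.63, FDR 0.00448). Gpr75, linked to body weight by human genetics, was at 21.9, 20, 21.9 and 26.7 CPM in fasted and 13.9, 15.5, 16.5 and 17.7 CPM in leptin samples (log2 -0.51, SE 0.12, FDR 0.0491). The Gpr75 call was also lost in 10 of 11 fits without 1 library (highest FDR 0.143, without leptin replicate 1), and with the block the log2 change was -0.50, just under the size required.

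The replicate block added 5 members to leptin against fasted, of which Gprc5a and Adgrg6 are given above. Gpr146, known from cholesterol metabolism in the liver, was at 15.7, 17.8, 16.1 and 29.3 CPM in fasted and 32.3, 26.6, 30.7 and 41.9 CPM in leptin samples. The fasted and leptin samples overlapped through fasted replicate 4, yet each leptin sample was above the fasted sample of its number. The log2 change was 0.73 (FDR 0.213), or 0.75 with the block (FDR 0.000489). Gpr176, known from the circadian clock of the suprachiasmatic nucleus, was at 54.4, 42.9, 43.2 and 46.8 CPM and at 73.9, 64.7, 87.0 and 46.7 CPM (0.54, FDR 0.132, or 0.0169 with the block). Without the samples numbered 4, Gpr146, Gpr176 and Adgrg6 were called in leptin against fasted without a block. The fifth, Gpr157, gave -0.50 (FDR 0.0885, or 0.0137 with the block).

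In POMC neurons no member and no gene was called (0% of 13412 genes) in fasted against fed, leptin against fasted or leptin against fed, with 2 samples per state. At an unadjusted p under 0.05 there were 2 members in each of the 3 comparisons, and 282, 151 and 282 genes. DESeq2 called 3, 10 and 7 genes and no member, and the replicate block called 3, 8 and 44 genes (0.0224%, 0.0596% and 0.328%) and no member. The POMC values of some of the members that moved in AgRP neurons were as follows. Gpr151 was at 1.50 and 0.940 CPM in fed, 0.869 and 1.16 CPM in fasted and 1.37 and 1.43 CPM in leptin samples. Gpr6 was at 11.8 and 10.8, 23.9 and 9.94, and 21.2 and 11.9 CPM in the same order, so that replicate 1 was above replicate 2 in all states, by a wide margin in fasted and leptin samples. Gpr3 lay between 2.43 and 4.15 CPM and Gpr63 between 2.29 and 4.14 CPM over the 6 samples. Gpr179 was at 13.2 and 13.4 CPM in fed, 27.9 and 18.5 CPM in fasted and 25.7 and 15.8 CPM in leptin samples. Its log2 fold change with fasting was 0.80, opposite in sign to AgRP neurons. Adgrg6 was at 5.90 and 5.19, 3.13 and 4.57, and 2.91 and 2.97 CPM. Its log2 fold change was -0.53 with fasting, the same sign as in AgRP neurons, and -0.92 for leptin against fed. A missed threshold with 2 samples does not show that POMC neurons did not respond.

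The difference of the responses was therefore tested directly. For fasting, AgRP minus POMC, Adgrg2 was the only member called, with a difference of 2.26 in log2 fold change (SE 0.39, FDR 0.0355), 1 of 73 members (1.37%) against 0.164% of all genes. The call was lost in 12 of 17 fits that left out 1 library (highest FDR 0.189, without POMC fed replicate 1), while the difference stayed between 2.08 and 2.45. With the replicate block 8 members were called (11% against 6.22%), among them Adgrg2 (2.28), Gpr3 (1.20) and Adgre5 (0.80) upward and Gpr179 (-1.34) and Adgrd1 (-0.97) downward. For leptin against fasted, Gpr151 was the only member called, with 3.52 (SE 0.46, FDR 0.0151), against 0.0819% of all genes. It was lost without AgRP fasted replicate 3 or any 1 of the 4 fasted or leptin POMC samples (highest FDR 0.215, without POMC fasted replicate 2). The block added Adgrd1 (1.01) and Gpr6 (-1.57), for 3 members against 0.759% of all genes.

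Over the 3 states 18 of 73 members were called between AgRP and POMC neurons (24.7%), against 13% of all 13435 genes, with 7 higher (6.51% of all genes) and 11 lower (6.45% of all genes) in AgRP neurons. With the replicate block 22 were called (30.1% against 16.9% of all genes). The median log2 difference was -0.20 for members and -0.02 for all genes, and 52 of 73 members had lower values in AgRP neurons. Higher in AgRP neurons were Gprc5a (2.77, SE 0.23, FDR 7.8e-07), Adgrg2 (1.83, SE 0.17), Adgrg6 (1.13, SE 0.18), Gpr151 (0.99, SE 0.19), Gpr3 (0.97, SE 0.13), Gpr63 (0.73, SE 0.14) and Adgra3 (0.55, SE 0.072), with FDR from 7.8e-07 to 0.0015. All of them but Adgra3 were also called between states of AgRP neurons, in comparisons that share these AgRP samples. By state, Gprc5a was called in fed (1.80), fasted (3.79) and leptin samples (2.73), Adgrg2 and Gpr3 in fasted and leptin samples, and Gpr151 in leptin samples alone (3.53).

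Lower in AgRP neurons was first Gpr101, a Gs-coupled orphan on the X chromosome linked to growth hormone excess in the pituitary. It was at 66.1 to 148 CPM (median 86.6) in the 11 AgRP samples and at 392 and 296 CPM in fed, 439 and 320 CPM in fasted and 400 and 336 CPM in leptin POMC samples. The lines did not overlap, and the difference was 3.74-fold (log2 -1.90, SE 0.19, FDR 4.7e-06). Gpr139, a receptor for aromatic amino acids known from the habenula, was at 3.44 to 7.10 CPM against 8.17 to 11.6 CPM (-1.18, SE 0.13, FDR 9.2e-06), and Gpr149 at 6.73 to 10.2 CPM against 14.5 to 19.3 CPM (-0.85, SE 0.089, FDR 7.1e-06). Both lines were again apart. The others included the synaptic latrophilin Adgrl3 (-0.81), Gpr165 (-0.72), Adgrd1 (-0.70), the chemerin receptor Gpr1 (-0.68), Adgrv1 (-0.59), a very large receptor of hair cell stereocilia, and Gpr22 (-0.52). Leaving out 1 library ended the call of Gpr1 in 3 of 17 fits (highest FDR 0.105, without POMC fasted replicate 1) and of Gpr22 in 4. Within the fed state 6 members were called (8.22% against 3.21% of all genes), with Gprc5a and Gpr179 (1.12) higher and Gpr101 (-1.72), Gpr139 (-0.88), Gpr149 (-0.79) and Gpr83 (-0.56) lower. In the fasted and leptin states 15 (13.3% of all genes) and 19 (11.1% of all genes) were called. The blocked fit called 14 in the fed state (10.9% of all genes) and 25 in the fasted state (23.4% of all genes). Astrocyte markers were also higher in POMC samples (626 to 1135 CPM against 391 to 881 CPM), and their part in these differences was not tested. In bulk samples of this kind, fewer cells of a type and less RNA per cell cannot be told apart.

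**Figure D3:**
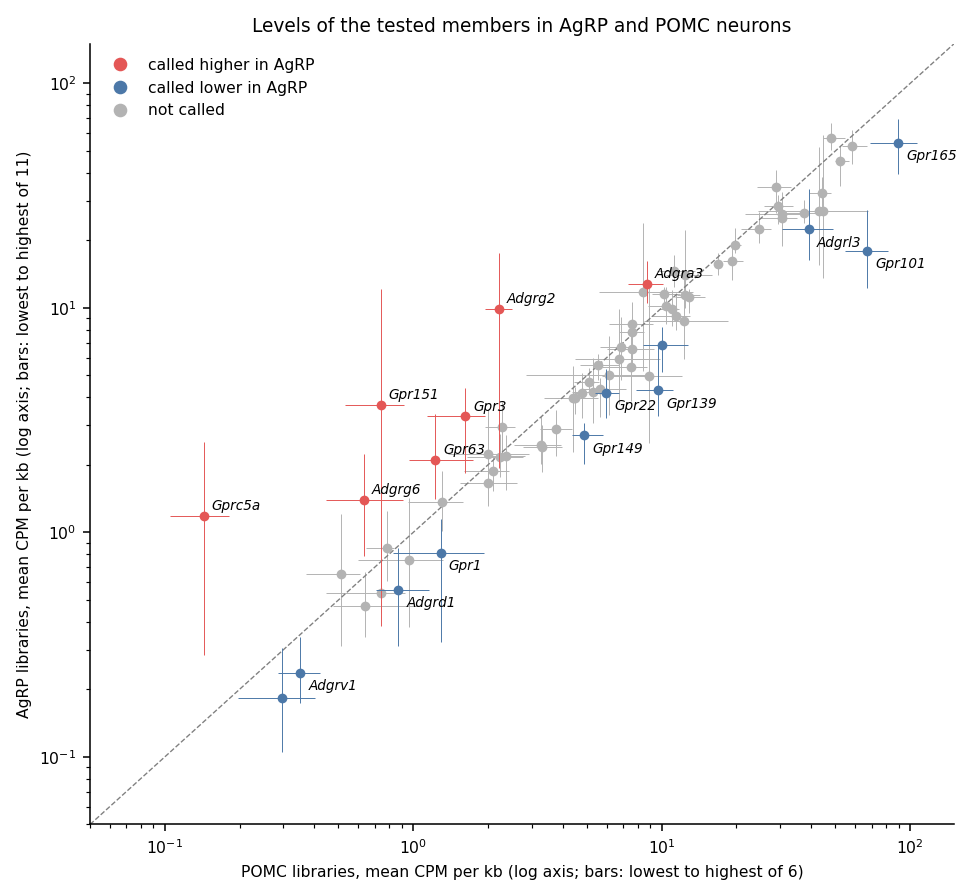
Mean level of each of the 73 tested members in POMC (horizontal) and AgRP libraries (vertical), in CPM per kb of exon on log axes, with bars from the lowest to the highest of 6 and 11 libraries and a dashed line of equal levels; called members named in the text are labelled. The 7 members called higher in AgRP neurons lie above the line, with Gprc5a farthest, and the 11 called lower lie below it, with Gpr101 at 18 against 67.2 CPM per kb.

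Several families had no called member. None of the 3 SREB receptors (Gpr27, Gpr85 and Gpr173), a conserved brain family, was called in a state or neuron-type comparison. Gpr21 and Gpr52, Gpr61 and Gpr62, and Gpr37 and Gpr37l1 were likewise not called without the replicate block. A missed call is not a level gene. Gpr27 passed the FDR in leptin against fed AgRP samples (0.0421), with a log2 change of 0.32, under the size required. Gpr52 was at 6.38 to 8.74 CPM in fed and 4.17 to 6.07 CPM in fasted AgRP samples, which did not overlap (log2 -0.50, FDR 0.179), and with the block its fasting response was called lower in AgRP than in POMC neurons (-0.81, FDR 0.0230). Gpr37l1 was at 66.4 to 74.3 CPM in fed and 42.6 to 60.3 CPM in fasted samples, again without overlap (-0.45, FDR 0.119). Such a lack of overlap between fed and fasted AgRP samples was seen for 20 of 71 members (28.2%) and 17.3% of all 13401 genes. Of the proton sensors, 2 of 4 were tested and none was called between states. Of 9 members linked to lipids or metabolites only Gpr55, which responds to lysophosphatidylinositol, was tested, and it was called lower in leptin than in fed samples with the replicate block alone (-0.60, FDR 0.0410; -0.76, FDR 0.402 without it). Of 11 rows for Golgi, lysosomal and other non-canonical proteins 10 were tested and Gpr157 alone was called. Members known from other cells were present but were not called in any comparison of states: Gpr37 and Gpr62 of the oligodendrocyte lineage, 3 of astrocytes and 3 of endothelium. The astrocyte receptor Gpr37l1 was at 42.6 to 74.3 CPM in AgRP samples and the endothelial Adgrf5 at 26.7 to 51.8 CPM. None of 5 microglial members passed the filter. Gpr50, known from tanycytes, was at 22.2 to 37.7 CPM in the 3 AgRP samples numbered 4 and at 7.66 to 15.2 CPM in the other 8, the same samples that were high in tanycyte markers, and it was called lower in AgRP than in POMC neurons with the block alone (-1.03).

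The partners of these receptors were read against the shares of all genes given above for each comparison. Of 12 G protein alpha subunits tested in AgRP neurons none was called between states, and Gnas, the stimulatory subunit, gave 0.68 with fasting (FDR 0.100, or 0.000149 with the replicate block). Of 11 beta and gamma subunits Gnb4 rose with fasting (0.62, FDR 0.0453), and of 16 RGS genes Rgs4 rose with fasting (0.75, FDR 0.0398) and Rgs14 was lower in leptin than in fed samples (-0.55). None of 6 receptor kinases and arrestins was called, and of 9 trafficking helpers Ramp1 fell with fasting (-0.51, FDR 0.0290), a call lost with the block, where the log2 change was -0.48 and under the size required. Of 21 tested genes for known or proposed ligands and partners of the members none was called between states. Between the neuron types 7 of these 21 were called. Flrt3, a latrophilin partner, was higher in AgRP neurons (1.67), and the teneurin genes Tenm1 (-1.62), Tenm2 (-1.06), Tenm3 (-0.82) and Tenm4 (-0.84), together with C1ql2 (-0.59) and Rtn4r (-0.53), were lower. Gnas (2.64, FDR 6.0e-08), Rgs2 (2.13), Gnb3 (1.44), Rgs4 (0.90) and Gnb4 (0.75) were higher in AgRP neurons, and Gnai1 (-0.58), Arrb1 (-0.54) and Rgs16 (-0.76) were lower.

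At the chromatin level 466 peaks lay in a member gene or within 10 kb of it, at 98 members. With fasting 90 of them were called (19.3%, against 27% of all 102237 peaks tested), and 53 were more open (18.1% of all peaks) and 37 less open (8.88% of all peaks). Every fit without 1 library called fewer, 46 to 68, with 46 without fed replicate 1, 48 without fasted replicate 1, 56 without fed replicate 2 and 58 without fasted replicate 2. With leptin 22 were called (4.72% against 3.08%), of which 19 were more open (2.41% of all peaks) and 3 less open (0.669% of all peaks). This count fell to 6 without fasted replicate 1, 7 without leptin replicate 1 and 10 without leptin replicate 2, so it and the motif shares of the 19 opened peaks depend on each of these libraries. Of the 109 peaks called in either comparison, 71 lay in an intron, 16 over an exon and 22 outside the gene. Apart from those at Adgrg2, the largest called fasting changes were at a peak of Adgrb3 (chr1:25240334-25240761, log2 3.59), one of Adgrl3 (chr5:81259357-81259729, -3.06) and one of Adgrv1 (chr13:81264448-81264707, 3.02). These are long genes with 39, 15 and 19 peaks. Their RNA was not called with fasting, but with the block Adgrv1 was called lower (-0.58, FDR 0.00762). After the Gpr45 peak, the largest leptin openings were at Adgrv1 (chr13:81146749-81147604, 2.98) and Adgrb3 (chr1:25197004-25197482, 2.84).

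**Figure D4:**
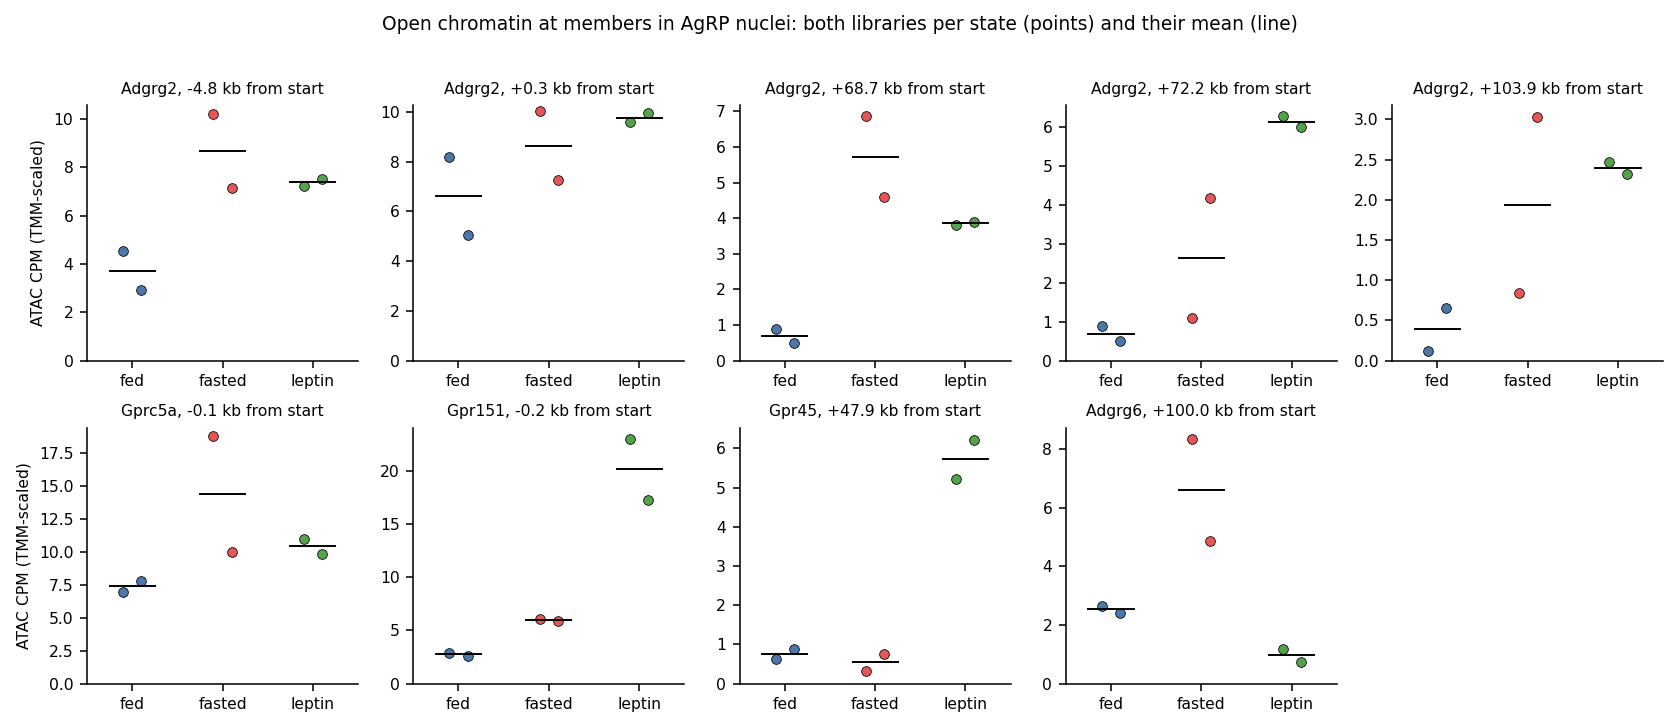
Reads in open-chromatin peaks (ATAC CPM, TMM-scaled; axes start at 0) at Adgrg2, Gprc5a, Gpr151, Gpr45 and Adgrg6 in AgRP nuclei, with both libraries per state as points and their mean as a line; each title gives the distance from the annotated start. At Adgrg2 the start peak (0.3 kb) changed little and the distal peaks were low in fed libraries, and the Gpr45 peak was at 5.21 and 6.22 in leptin libraries.

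Over start sites, 7 of 94 member peaks were called with fasting (7.45% against 7.14% of start peaks of all genes). Those of Gpr35 (1.68), Gpr101 (1.25), Adgrg1 (1.16), Gpr151 (1.13) and Gprc5a (0.94) were more open, and those of Adgra2 (-1.73) and Gpr45 (-0.51) less open. Only Gprc5a among these was also called in RNA with fasting. The Gpr35 peak (chr1:92971773-92972367) held 5.92 and 9.51 ATAC CPM in fed, 27.3 and 24.3 in fasted and 29.2 and 18.3 in leptin libraries, while its RNA was between 0.0739 and 1.22 CPM in AgRP samples, too low to be tested.

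AgRP-positive and AgRP-negative nuclei, sorted from the same pools of ARCs and fitted without pairing, differed at 109 of 309 member peaks (35.3% against 39.6% of all 66560 peaks), with 54 more open (23.9% of all peaks) and 55 less open (15.6% of all peaks) in AgRP-positive nuclei. With the replicate number as a block 117 were called, and 67 without AgRP-negative replicate 2. Over start sites 16 of 80 were called (20% against 17.4%). More open were 3 (3.76% of all genes' start peaks), those of Gpr35 (2.48), Gprc5a (2.09) and Gpr157 (0.60). The 13 less open (13.6% of all genes' start peaks) included Gprc5b (-2.17), Gpr149 (-2.01), Gpr22 (-1.45), Gpr85 (-1.41), Gpr146 (-1.20), Gpr101 (-1.16) and Gpr37 (-1.04). Gprc5a, Gpr101, Gpr149 and Gpr22 thus had the same sign here as in the RNA of AgRP against POMC neurons, although AgRP-negative nuclei come from all other ARC cells and not from POMC neurons alone.

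Motif letters were counted in the central 300 bases of each peak. The AP-1 letters TGANTCA were in 38 of the 53 member peaks opened by fasting (71.7%), against 71.1% of 18511 such peaks in the genome, and in 2 of the 37 closed ones (5.41% against 5.43%). Over all 466 member peaks the share was 23.4%, against 32.2% of all peaks. The STAT letters TTCNNNGAA were in 7 of 19 member peaks opened by leptin (36.8% against 39.2% of 2462) and in 12.2% of all member peaks, against 12.4% of all peaks. The letters of the interferon-stimulated response element (ISRE) were in 1 of the 53 member peaks opened by fasting (1.89% against 3.48%). They were in 3 of the 37 closed by fasting (8.11% against 5.58%) and in 0 of the 19 opened by leptin (against 4.51%).

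**Figure D5:**
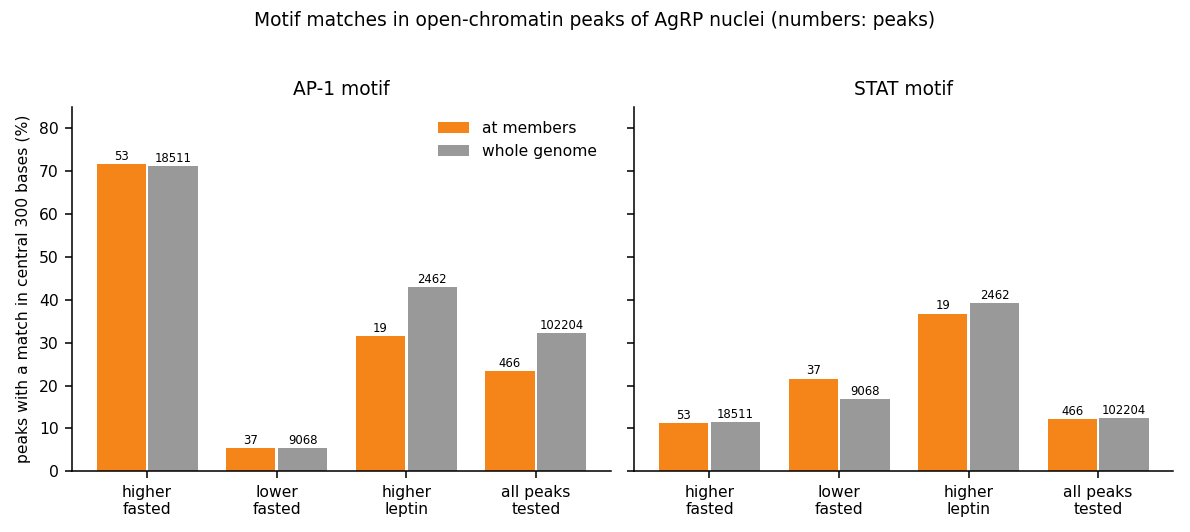
Share of peaks (vertical axis, %) with a match to the AP-1 (left) or STAT letters (right) in their central 300 bases, for peaks at members (orange) and all peaks of the class (grey), with the number of peaks above each bar. AP-1 reached 71.7% of the fasting-opened member peaks against 71.1% in the genome, and STAT 36.8% against 39.2% of leptin-opened peaks.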

How the data were processed

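TRAP RNA-seq of AgRP and POMC neurons and ATAC-seq of sorted ARC nuclei were analysed. The authors aligned RNA reads with HISAT2 and counted them on exons of a GRCm38 annotation, modified to reduce overlap, with featureCounts; ATAC-seq reads were aligned to mm10 with Bowtie2, peaks were called with MACS2 and reads per merged peak were counted with BEDtools. The values used are the counts as deposited, not normalized, per gene and per peak. The RNA kit does not mark strand.

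Counts were analysed here with edgeR 4.0.16 in R 4.3.3 (TMM scaling, mean CPM over 1, glmQLFit and glmQLFTest, condition as the single factor). AgRP and POMC libraries were fitted separately for state comparisons and together for comparisons of the lines. Calls needed an FDR under 0.05 over all features tested and an absolute log2 fold change over 0.5. CPM values are TMM-scaled over the 17 RNA libraries. Levels per kb used the exon lengths of the deposited count table, and positions, exon overlaps and peak distances GENCODE M21 (GRCm38); promoter windows came from RefSeq (GRCm38.p6), with at least 1 for 73 of the 105 members.

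Same-numbered RNA samples deviated together from their group means (r from 0.536 to 0.814 over 10 AgRP pairs and from 0.733 to 0.770 over 6 POMC pairs). AgRP pairs with different numbers gave -0.642 to 0.642 (median -0.236), which overlaps the range of same-numbered pairs. With 2 POMC samples per state the deviations mirror each other, so the POMC pairs are not independent. The numbers were taken to pair the RNA samples, but the main counts, FDRs and figures come from fits without the block. The fits that each left out 1 library also had no block. Of the 13 members called between states of AgRP neurons without it, all but Gpr75 were also called with it in at least 1 comparison. For the ATAC libraries of the 3 states r was -0.00228 to 0.165, so the number was not taken to pair them. AgRP-positive and AgRP-negative nuclei came from the same pools, but same-numbered libraries gave an r of only 0.0988, and the fit with the block is the alternative. No 2 RNA libraries held identical values. Each sample pools mice, and p-values measure the spread between these samples.

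Alternatives were other scalings, no filter, no minimum fold, DESeq2 1.42.0, the replicate block, fed libraries alone, other peak windows and each library left out; leaving out the AgRP samples numbered 4 was added after seeing the data. The members and lists were chosen with earlier results of these data known. Named were the members called in a comparison or with the block, their closest relatives, the 10 highest per kb in each line and the members the study names; Gpr35, Gpr37l1, Gpr50, Adgrf5 and the listed partners were added from the lists or after their values were seen. The fits were checked on simulated counts with known changes. Whole-ARC RNA and CUT&RUN data were not analysed here, and 9 files were not used; some results are not reported here.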

Additional observations from a re-analysis of the deposited data

Results flagged for a closer look

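AgRP replicate 4 lay far above the other samples of its group in 6 of the 110 groups of 4 samples examined over 55 members, where chance gives about 1 in 20 groups. In fasted samples these were Gpr26 (164 CPM against 38.0 to 48.4), Gprc5b (320 against 100.4 to 112), Gpr50 (37.7 against 7.66 to 9.94) and Gpr146 (29.3 against 15.7 to 17.8). In leptin samples they were Gpr26 (146 against 40.7 to 48.1) and Gprc5b (314.5 against 95.5 to 128.5). The same samples were also high in astrocyte and tanycyte markers, whose part was not tested. The count of 6 in 110 groups is near 1 in 20. All 6 were replicate 4, and genes of the same library are not independent, so this share cannot show whether the count arose by chance. Gpr50 was added from the lists or after its values were seen.

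The response of Adgrg2 to fasting differed between AgRP and POMC neurons by 2.26 on the log2 scale (SE 0.39, FDR 0.0355, edgeR), with every fasted AgRP sample above every fed one and POMC samples between 9.18 and 11.8 CPM. The response of Gpr151 to leptin differed by 3.52 (SE 0.46, FDR 0.0151), with all 4 leptin AgRP samples above the fasted ones and POMC samples between 0.869 and 1.43 CPM in these states. Line and cell type cannot be told apart in either.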

How the results depend on the processing

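No named member that was called changed direction under an alternative; some that were not called did so when 1 library was left out. Scaling by library size alone lowered the members called from 9 to 4 with fasting, from 7 to 4 for leptin against fed, and to 0 for both differences of response between the lines; the cause was not tested. DESeq2 called 3 members for the difference of the fasting response, 14 member peaks with leptin (22 in the edgeR fit) and 68 between AgRP-positive and AgRP-negative nuclei (109). With the replicate block 9 members were called for leptin against fasted, 8 for the difference of the fasting response and 3 for that of the leptin response, and in the other comparisons of members over all states the count stayed within 1.5 times. Beside the calls given above, the block added Adgrv1 with fasting, Gpr146 for leptin against fed, and Gpr26, Gprc5b, Gpr55 and Gpr153 between the lines, where it lost Gpr22; it changed no other call of a named member in comparisons within AgRP neurons or over all states. With no minimum fold, 8 members were called for leptin against fasted and 40 between the lines. At an unadjusted p under 0.05 (edgeR) there were 44 of 73 members and 6234 of 13435 genes between the lines. Fed libraries alone gave 3 members between the lines. Where no share of all genes stands beside a count in this section, the count shows only how calls depend on the processing.

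Leaving out 1 library gave 5 to 8 members with fasting (5 without fasted replicate 1 or 3 or fed replicate 1 or 3), 2 to 6 for leptin against fasted (2 without fasted replicate 3 or leptin replicate 1, 3 without fasted replicate 1 or 2), 5 to 9 for leptin against fed, 0 to 0 in each POMC comparison, 17 to 24 between the lines and 0 to 1 for each difference of response. For member peaks it gave 46 to 68 with fasting, 6 to 24 with leptin and 67 to 95 between nuclei. Without the AgRP samples numbered 4 (chosen after seeing the data) the counts were 8, 7, 9, 26, 1 and 1.

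Peak counts follow the window: 204, 39 and 213 peaks within 50 kb, and 7, 1 and 16 over start sites. Members near 1 CPM, such as Gprc5a and Gpr151 in fed samples, rest on few reads (17 to 44). With 2 POMC samples per state and 2 ATAC libraries per group, missed calls say little.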
